A study of Mus musculus with 18 samples.

Results

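This account follows 223 array features, of 25030 in the deposited value table, whose level went one way in 2 mouse embryonic stem cell lines after loss of LIF and the opposite way in another, Oct4 VP2. A feature is a 60-base probe that reads a transcript. Members were chosen by their change from 24 h with LIF to 120 h without LIF, on the log2 scale and as the mean of 2 arrays per group. In 135 features, called falling here, the change was -1 or lower in ZHBTc4 and in Oct4 and 0.75 or higher in Oct4 VP2. In 88 features, called rising, it was 1 or higher in both and -0.75 or lower in Oct4 VP2. The changes at 120 h are therefore what chose the members, and they are given below as a description with no test.

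The study profiled 18 cultures of embryonic stem cells of the 129/Ola strain on arrays of 2 colours, with the sample in Cy3 and a universal mouse reference RNA in Cy5. ZHBTc4 is a line in which tetracycline can shut off the transgene that supplies Oct4. The Oct4 and Oct4 VP2 lines were made from it by electroporation under tetracycline, the first with a mouse oct4 construct and the second with oct4 joined to VP16, both under puromycin selection. RNA was taken from each line after 24 h in culture with LIF and after 48 h or 120 h without it, which gave 9 groups of 2 arrays. The series describes 2 independent clones per line, and the labels number the Oct4 arrays with LIF as clones 4 and 5. The Oct4 VP2 flasks received 250000 cells and those of the other lines 200000. Oct4 VP2 cultures, and Oct4 cultures without LIF, were plated with tetracycline and 2 μg/ml puromycin. The labels of ZHBTc4 and of Oct4 with LIF mention neither, and those of Oct4 with LIF call the modification a knock-in where the other Oct4 labels give random integration. Constructs inserted at random can differ in level between clones, and by the labels the other lines are not matched to Oct4 VP2 in every agent. LIF was withdrawn 24 h after plating, so the cultures without it were also older.

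Oct4, a transcription factor of the POU family, is required for the pluripotent state of embryonic stem cells. LIF is the cytokine that, through its receptor and STAT3, keeps such cells from differentiating in culture, and its removal is followed by loss of pluripotency genes and a rise of genes of the differentiated lineages. VP16 is a viral protein whose activation domain strongly recruits the transcription machinery, so a fusion of Oct4 with it acts as an activator at the sites that Oct4 binds. The series title names transcriptional activation by Oct4 and the upkeep of pluripotency as its subject.

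The files pair no feature with a gene, so lists of pluripotency, endoderm, trophectoderm, mesoderm, neural and fibroblast genes, and the identity of the cells by their markers, were not analysed here. Members are therefore shown by their sequence. The first 4 sequences below belong to the 2 features in each direction with the largest opposite response, ranked by the smallest of their 3 absolute changes, and the fifth belongs to a falling member that could be placed in the genome. The first 2 fell in ZHBTc4 and Oct4, and the next 2 rose there. Capitals mark AATAAA, the signal that precedes the poly(A) tail of many mRNAs, where it occurs.
Z00022680-1: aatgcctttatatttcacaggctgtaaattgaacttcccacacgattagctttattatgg
Z00034794-1: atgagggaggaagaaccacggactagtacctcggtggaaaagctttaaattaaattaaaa
Z00075208-1: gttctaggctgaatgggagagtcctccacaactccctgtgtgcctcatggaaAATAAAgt
Z00061870-1: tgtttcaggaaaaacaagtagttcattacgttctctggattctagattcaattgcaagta
Z00023694-1: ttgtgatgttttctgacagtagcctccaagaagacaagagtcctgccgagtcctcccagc

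Base composition was similar at the median. The median G and C content was 43.3% in the falling and 43.3% in the rising set, the same as over all 25030 features (43.3%). The quartiles were 40.0% and 46.7% in the falling set and 36.7% and 48.3% in the rising set. AATAAA, searched on the printed strand, occurred in 11 of 135 falling members (8.15%) and 7 of 88 rising members (7.95%), beside 7.9% of all features in the table. On the other strand, read as TTTATT, it occurred in 5 falling members (3.7%) and 2 rising members (2.27%), beside 3.62% of all features.

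The 60 bases of each member were also compared, on both strands, with 32851 RefSeq promoter windows of up to 300 bases (GRCm38.p6). Of the 223 members 2 matched a window in full, both of them falling, beside 267 of the 42006 features on the array. Z00023694-1 matched chr11:24172868-24172927 on the plus strand. The stretch lies within the span that RefSeq gives Bcl11a (24076564 to 24173558), a zinc finger transcription factor, 631 bases before its end, and in the promoter window of the long noncoding RNA 4930538E20Rik, on the strand opposite to that RNA. Z00029667-1 matched chr7:45569995-45570054 on the minus strand. That stretch lies within the spans of Bcat2, a mitochondrial enzyme of branched-chain amino acid breakdown, and of the long noncoding RNA 0610005C13Rik, and it was found in the window of Bcat2 on the opposite strand. Which exon or intron the stretches belong to, and whether they match elsewhere in the genome, was not analysed here.

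In the falling set the level dropped by a median of 1.82 on the log2 scale in ZHBTc4 and of 1.74 in Oct4, and it increased by a median of 1.16 in Oct4 VP2. The changes spanned -4.79 to -1.004 (ZHBTc4), -5.10 to -1.002 (Oct4) and 0.75 to 3.16 (Oct4 VP2). The rising set mirrored this, with medians of 1.62 in ZHBTc4, 1.64 in Oct4 and -1.01 in Oct4 VP2. Its ranges were 1.00 to 4.86, 1.01 to 5.57 and -3.60 to -0.77. Over all 25030 features the median changes were -0.08, -0.06 and -0.01 in the same order of lines. The 135 falling and 88 rising members were a small part of the features with the same response in ZHBTc4 and Oct4. An Oct4 VP2 change of opposite sign and any size was more frequent. Of 1559 features that fell by 1 or more in both ZHBTc4 and Oct4, 428 had an Oct4 VP2 change above 0 and 373 also fell by 1 or more in Oct4 VP2. Of 1827 features that rose by 1 or more in both, 356 had an Oct4 VP2 change below 0 and 673 also rose by 1 or more in that line.

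The thresholds cut through a continuous range. In the falling direction 21 members lay within 0.1 above the Oct4 VP2 threshold, the nearest at 0.755, and 23 features lay within 0.1 below it, the nearest at 0.741. In the rising direction 13 members lay within 0.1 beyond the threshold, the nearest at -0.771, and 20 features within 0.1 short of it, the nearest at -0.749.

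The single arrays separated unevenly. For 93 of the 135 falling members (68.9%) and 71 of the 88 rising members (80.7%), both arrays at 120 h lay beyond both arrays with LIF in all 3 lines. The same patterns occurred in 3.26% and 3.3% of all 25030 features, a background from which nothing is read here, because the selection used these arrays. Falling members separated in 131 of 135 cases in ZHBTc4, 124 in Oct4 and 104 in Oct4 VP2. For the rising members these counts were 86, 83 and 77 of 88. Overlap between arrays was thus most frequent in Oct4 VP2, where the required change was also the smallest.

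The time course differed between the lines in its starting level as well as in its end. Levels are given here as the median over members of the value table's log2 ratio, relative to ZHBTc4 with LIF, for each of the 2 arrays. With LIF the falling members stood at -0.68 and -1.37 in Oct4 VP2 and at 0.17 and -0.32 in Oct4. At 48 h without LIF they stood at 0.24 and 0.09 in Oct4 VP2, at -0.29 and 0.03 in Oct4, and at -0.34 and -0.05 in ZHBTc4. At 120 h they stood at 0.33 and 0.11 in Oct4 VP2, against -2.10 and -2.15 in Oct4 and -1.97 and -1.83 in ZHBTc4. So Oct4 VP2 was the low line with LIF and the high line at 120 h, and at 48 h the 3 lines lay close together. In RNA of whole cultures, fewer cells with a transcript and less of it per cell cannot be told apart.

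The rising members showed the mirror image. With LIF they stood at 0.93 and 1.09 in Oct4 VP2 and at -0.54 and 0.04 in Oct4. At 48 h they stood at -0.07 and -0.10 in Oct4 VP2, 0.26 and -0.03 in Oct4, and -0.13 and 0.04 in ZHBTc4. At 120 h Oct4 VP2 stood at 0.03 and -0.22, Oct4 at 1.53 and 1.50, and ZHBTc4 at 1.80 and 1.57. Over all 25030 features the array medians stayed between -0.10 and 0.03. By group means, Oct4 VP2 with LIF lay below both other lines for 95 of the 135 falling members, beside 36.2% of all 25030 features, and above both for 71 of the 88 rising ones, beside 37.5%. The rule used the arrays with LIF and at 120 h, and it favours a low start in Oct4 VP2 for falling members and a high one for rising members, so nothing is read from these counts.

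The steps fell in different intervals. They are a description too, since each step starts or ends on arrays that the rule used. In Oct4 VP2 the falling members went up by a median of 1.02 from 24 h with LIF to 48 h without it and by 0.21 from 48 h to 120 h. In ZHBTc4 the medians of these steps were -0.11 and -1.64, and in Oct4 0.07 and -2.01. The rising members moved by -1.11 and then -0.03 in Oct4 VP2, by -0.10 and then 1.93 in ZHBTc4, and by 0.28 and then 1.58 in Oct4. The earlier step was the larger one in Oct4 VP2 for 95 of 135 falling and 68 of 88 rising members. In ZHBTc4 the later step was the larger one for 94 and 79, and in Oct4 for 104 and 75. Among the other 1424 features that fell in ZHBTc4 and Oct4, the median ZHBTc4 steps were -0.75 and -1.10, so part of their fall lay before 48 h.

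The slides moved with some of these steps. All 4 Oct4 VP2 arrays of the first 2 conditions shared slide 1, whereas the 2 at 120 h were on slide 2. The Oct4 arrays with LIF were on slide 5 and those without LIF on slides 2 and 3, and the ZHBTc4 arrays with LIF had slide 4 to themselves. Slides 1 to 3 were scanned in 1 session and slides 4 and 5 in another. The step of Oct4 VP2 to 48 h was measured within 1 slide, from arrays with LIF that the rule used, so the choice of members favours a step away from that start and the part of slides in it was not tested. For the difference between Oct4 VP2 and the other lines with LIF, line, slide and session cannot be told apart.

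Many members were faint. A feature counts as well above background when the scanner software calls it so in Cy3, the channel of the sample. Of the falling members 37 of 135 (27.4%) and of the rising members 37 of 88 (42%) passed on all 18 arrays, beside 14911 of 25030 features in the table (59.6%). The median member passed on 14 arrays in both directions, and 2 falling and 5 rising members passed on none. On single arrays the share of falling members above background was 31.9% to 40.0% in ZHBTc4 and 40.7% to 45.9% in Oct4 at 120 h, and 81.5% to 91.9% in Oct4 VP2 at 120 h. The 2 Oct4 arrays with LIF differed most among themselves, at 85.2% and 58.5%. The share of all features above background ran from 65.9% to 77.1% over the arrays.

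How far a faint feature appears to change depends on the background correction. The value table follows the scanner software's background-subtracted signals. With a normexp correction that adds an offset to faint signals and loess within each array, the median changes of the falling members shrank to -0.54 in ZHBTc4, -0.47 in Oct4 and 0.37 in Oct4 VP2. Those of the rising members became 0.94, 0.59 and -0.45. The 3 directions were the same for 122 of the 135 falling and 84 of the 88 rising members. These values come from the spots and arrays that chose the members, so the choice favours the same directions. All 3 thresholds were met by 13 falling members (9.63%) and 20 rising members (22.7%), and all of these were among the bright ones, that is, the 37 in each direction above background on all 18 arrays.

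The bright members kept most of the size of their change. In the 37 bright falling members the normexp and loess medians were -1.28 in ZHBTc4, -1.05 in Oct4 and 0.84 in Oct4 VP2, beside -1.61, -1.53 and 1.09 in the value table. In the 37 bright rising members they were 1.55, 1.47 and -0.79, beside 1.55, 1.64 and -0.96. The reference channel, Cy5, had median changes between -0.03 and 0.04 in the falling members and between -0.04 and 0.04 in the rising ones. Single members departed from this. In Oct4 VP2 the Cy5 changes ran from -1.85 to 0.55 in the falling set, the lowest in a bright member, and from -0.44 to 1.41 in the rising set. Both single channels were taken after the same normexp offset and loess, with average brightness matched between arrays, so they carry that offset too. The Cy3 channel alone gave medians of -0.46, -0.46 and 0.29 in the falling set and 0.99, 0.59 and -0.42 in the rising set. Cy3 is the numerator of the values that chose the members, so the directions of these medians follow from the choice. On Cy3 alone the rule was met by 13 of the 135 falling and 19 of the 88 rising members, and the Oct4 VP2 changes of the falling members in Cy3 ran from -0.94 to 2.64.

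Among single members, Z00075208-1 had the largest opposite response of the rising set and was above background on all 18 arrays. Its value table log2 level was 11.15 and 11.09 in ZHBTc4 with LIF, then 10.13 and 11.09 (48 h) and 13.59 and 14.43 (120 h). In Oct4 it was 8.28 and 10.28 with LIF, then 9.94 and 8.92 (48 h) and 14.33 and 14.15 (120 h). In Oct4 VP2 it was 10.72 and 11.32 with LIF, then 8.36 and 8.02 (48 h) and 9.93 and 7.49 (120 h). The arrays at 120 h were the highest in ZHBTc4 and Oct4 and lay below both LIF arrays in Oct4 VP2, so the groups did not overlap within any line.

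For this feature normexp and loess gave changes of 2.87 in ZHBTc4, 4.64 in Oct4 and -1.79 in Oct4 VP2, near the 2.89, 4.96 and -2.31 of the value table. The zero of the value table is arbitrary for each feature, so these levels can be compared between arrays and not between features. At 48 h, in arrays the selection did not use, Oct4 VP2 was lower than ZHBTc4 by a log2 difference of -1.97 ± 0.58 (SE, n = 2 arrays a line; limma, adjusted p = 0.026). This call was lost without either Oct4 VP2 array at 48 h (differences of -2.10 and -1.85), without replicate 2 of ZHBTc4 (-1.54), with scan session as a block (-1.53), with median centring (-1.83) and in the value table (-2.42). Against Oct4 the difference was -0.96 ± 0.58 and did not pass (limma, adjusted p = 0.28).

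The second feature of the rising set, Z00061870-1, was fainter and was above background on 12 of 18 arrays. Its value table level was 5.34 and 5.64 in ZHBTc4 with LIF, then 6.17 and 6.32 (48 h) and 9.03 and 9.79 (120 h). In Oct4 it was 3.27 and 5.06 with LIF, where neither array was well above background, then 6.45 and 6.31 (48 h) and 6.30 and 5.87 (120 h). In Oct4 VP2 it was 5.40 and 4.26 with LIF, then 3.33 and 3.07 (48 h) and 3.07 and -0.62 (120 h). Replicate 2 of Oct4 VP2 at 120 h stood apart, and on that array the reference channel was at a log2 intensity of 8.80 against 5.86 to 6.25 on the other 17 arrays.

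The 2 leading falling members were faint as well. Z00022680-1 was above background on 13 arrays. Its level was 7.25 and 6.87 in ZHBTc4 with LIF, then 7.80 and 7.80 (48 h) and 2.74 and 2.95 (120 h), and in Oct4 it was 7.05 and 7.99, 7.74 and 8.10, and 4.47 and 4.20 at these times. In Oct4 VP2 it was 5.66 and 4.58 with LIF, then 7.97 and 7.32 (48 h) and 8.31 and 6.94 (120 h). At 120 h no array of ZHBTc4 or of Oct4 was well above background. The Cy3 signal therefore gives a bound there, which is the LIF group's mean against, on each 120 h array, the higher of the feature's own signal and the lowest signal called above background. By this bound Z00022680-1 was at least 1.59-fold lower at 120 h in ZHBTc4. In Oct4 the feature's own signal was the higher one at 120 h. The 2.02-fold value there is thus the observed ratio of the Cy3 means (7.16 and 6.15, log2) and not a lower limit.

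Z00034794-1 was above background on 14 arrays. Its level was 6.69 and 6.85 in ZHBTc4 with LIF, then 5.89 and 6.31 (48 h) and 2.58 and 5.54 (120 h). In Oct4 it was 6.51 and 6.25, 6.48 and 6.22, and 4.10 and 2.40, the last pair not well above background, which makes it at least 1.60-fold lower at 120 h. In Oct4 VP2 it was 5.56 and 3.92 with LIF, then 5.62 and 5.83 (48 h) and 7.03 and 7.12 (120 h). In the value table the Oct4 VP2 arrays at 120 h were the highest of all 18. With normexp and loess they were at 0.77 and 0.86, overlapping ZHBTc4 with LIF (0.76 and 0.82) and Oct4 with LIF (0.86 and 0.77).

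Z00023694-1, the member inside the Bcl11a span, was above background on all 18 arrays. Its level was 8.65 and 8.61 in ZHBTc4 with LIF, then 10.40 and 10.33 (48 h) and 7.32 and 6.72 (120 h). In Oct4 it was 8.66 and 8.81 with LIF, then 10.09 and 10.17 (48 h) and 7.63 and 7.71 (120 h). In Oct4 VP2 it was 7.52 and 6.67 with LIF, then 10.20 and 9.79 (48 h) and 9.46 and 8.74 (120 h). The level was highest at 48 h in all 3 lines, and the opposite change from 24 h to 120 h came with a lower start and a higher end in Oct4 VP2. At 48 h Oct4 VP2 differed from ZHBTc4 by -0.31 ± 0.19 (SE, n = 2 arrays a line; limma, adjusted p = 0.28) and from Oct4 by 0.0035 ± 0.19 (adjusted p = 0.99). Z00029667-1, inside the Bcat2 span, was well above background on 3 arrays, the 2 of ZHBTc4 with LIF and 1 of ZHBTc4 at 48 h, so its changes in Oct4 and Oct4 VP2 carry no measured direction.

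Some members share bases with another feature of the array that is outside the value table and so took no part in the selection, although it was read from the same RNA on the same arrays. There were 10 such partners, each sharing a run of 25 or more bases with 1 member. Of these, 8 changed in the same 3 directions as their member and 3 met the thresholds as well, by the scanner software's signals. Among the 16950 features outside the value table, faint ones included, the falling signs occurred in 13.7% and the rising signs in 13.6%. The thresholds of the falling rule were met by 0.36% of them and those of the rising rule by 0.295%. Partners share bases and RNA with members chosen for this pattern, so the choice favours the same directions and nothing further is read from these counts. A rising member, above background on all 18 arrays, had a partner with all 60 bases in common. The member changed by 1.08 in ZHBTc4, 2.10 in Oct4 and -0.96 in Oct4 VP2, and the partner by 1.22, 1.89 and -0.57. A falling member with such a partner changed by -4.15, -1.31 and 0.93, and its partner by -3.62, -0.81 and 0.65. Neither of these falling spots was well above background on any Oct4 array with LIF or at 120 h, so their Oct4 changes carry no measured direction. This falling partner is nevertheless counted among the 8. The size fell short of the threshold in Oct4 VP2 in both partners, and in Oct4 as well in the falling one.

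The arrays at 48 h took no part in choosing the members, so the lines were compared there. At that time the Oct4 VP2 arrays were on slide 1, the Oct4 arrays on slide 2 and the ZHBTc4 arrays on slides 3 and 5. Line and slide therefore cannot be told apart in these tests. The test was limma with a mean per group over all 18 arrays, on normexp and loess values, and a call needed a Benjamini-Hochberg adjusted p under 0.05 over all 31727 features tested and a 2-fold difference. Of the members 122 falling and 74 rising passed the filter on faint features. Since clones are few, a p-value here measures the spread between the 2 arrays of a group, pooled over all 9 groups. It assumes the same spread in each group.

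Against Oct4, Oct4 VP2 was higher in 15 and lower in 7 of the 122 falling members, with a median log2 difference of 0.10. Over the 19438 tested features of the value table, 4.02% were called higher and 3.53% lower, with a median of -0.01. Most falling members thus did not differ by a call at 48 h, and the called ones ran in both directions, from -3.08 to 3.50. Of the 74 rising members 4 were higher and 5 lower, with a median of -0.05. The directions leaned on single arrays: without replicate 1 of Oct4 at 48 h, 12 falling members were higher and 11 lower and 5 rising ones higher and 2 lower. Without replicate 2 of Oct4 these counts were 18 and 4, and 2 and 8, and without replicate 2 of Oct4 VP2 the rising counts were 3 and 2.

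Against ZHBTc4, Oct4 VP2 was higher in 15 and lower in 3 of the 122 falling members, with a median of 0.06, beside 3.93% higher and 3.26% lower over the table. Of the 74 rising members 2 were higher and 7 lower, with a median of -0.14. The falling counts leaned to higher in Oct4 VP2, also under median centring (18 and 3) or when scan session was a block (17 and 4). The rising counts kept no lean to lower, with 4 higher and 3 lower under median centring and 5 each way when session was blocked. Over all 31727 features tested, 1511 were higher and 465 lower under median centring, and 1202 and 881 with session blocked. The main setting gave 1022 and 846, so both settings moved the array as a whole towards higher in Oct4 VP2. Without replicate 2 of ZHBTc4 the rising counts were 2 and 3, and with the scanner software's signals the falling counts were 21 and 9 and the rising counts 8 and 12. Both comparisons with Oct4 VP2 use the same Oct4 VP2 arrays.

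Between Oct4 and ZHBTc4, 3 falling members were higher and 1 lower in Oct4, and 1 rising member was higher and 2 lower, beside 0.442% higher and 0.442% lower over the table. These counts are small, and leaving out single arrays moved them between 1 and 4 in both sets.

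The bright members held 11 of the 22 falling and all 9 of the rising members called against Oct4, and 9 of the 18 falling and all 9 of the rising members called against ZHBTc4. Of the 37 bright falling members, 8 were higher and 3 lower in Oct4 VP2 than in Oct4, and 8 higher and 1 lower than in ZHBTc4. Of the 37 bright rising members, 4 were higher and 5 lower than in Oct4, and 2 higher and 7 lower than in ZHBTc4. Among all 14911 bright features of the table, 4.4% were higher and 4.17% lower than in Oct4, and 4.26% higher and 3.85% lower than in ZHBTc4.

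Features that fell by 1 or more in ZHBTc4 and Oct4 without reaching 0.75 in Oct4 VP2 give a second comparison at 48 h. Some of these features rose in Oct4 VP2, by up to 0.74. In this set 1385 were tested, and 316 (22.8%) were higher and 22 lower in Oct4 VP2 than in Oct4, with a median of 0.34. Among the falling members 15 (12.3%) were higher and 7 lower. Another 1685 tested features were past 1 in both lines but did not reach -0.75 in Oct4 VP2, though some fell there. Of that set 29 were higher and 241 (14.3%) lower in Oct4 VP2 than in Oct4, with a median of -0.24. Among the rising members 4 were higher and 5 (6.76%) lower. Relative to ZHBTc4, 304 (21.9%) of the other falling features were higher and 18 lower in Oct4 VP2, beside 15 (12.3%) and 3 falling members. Of the other rising features 16 were higher and 257 (15.3%) lower than in ZHBTc4, beside 2 and 7 (9.46%) rising members. A lean in these directions was thus not particular to the members. None of these differences between members and other features was tested. The sets also differed in brightness. Of the other falling features 917 of 1424 (64.4%) were above background on all 18 arrays, beside 37 of 135 falling members (27.4%). For the other rising features it was 1149 of 1739 (66.1%), beside 37 of 88 rising members (42%). Of the 37 bright falling members 8 (21.6%) were higher and 3 lower in Oct4 VP2 than in Oct4. Of the 37 bright rising members 4 were higher and 5 (13.5%) lower.

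The 2 arrays of a group at 48 h show how precise the members' values are. In the value table they differed by a median of 0.42 in ZHBTc4, 0.48 in Oct4 and 0.53 in Oct4 VP2 over the falling members, and by 0.35, 0.51 and 0.43 over the rising ones. Over all features these medians were 0.23, 0.25 and 0.19. The members' arrays thus differed more than the table's medians in each line, and in the 37 bright falling members the differences were 0.25, 0.47 and 0.30.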

How the data were processed

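Per the file headers, the deposited scanner files hold the intensity of each spot in Cy3 and Cy5, made with Agilent Feature Extraction 9.5.1.1. The authors also deposited a value table on a log10 scale, whose making is not given in the sources used here. After centring each feature over the arrays, 100% of its values matched the processed Cy3 over Cy5 signals to 0.001 (log10). A constant per feature stays unknown, and the column medians lie between 2.33 and 2.36. Values were multiplied by 3.3219 to give log2, and the selection used them.

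For the tests, mean signals were corrected with normexp (offset 50) and loess in limma 3.58.1 (R 4.3.3), with flagged and control spots left out. The filter asked that some group have both of its arrays well above background in Cy3. It kept 31728 features, of which 31727 could be tested. A group mean was fitted with lmFit and eBayes (9 residual and 3.69 prior degrees of freedom). The series states a false discovery rate under 0.05 and a 2-fold change as the submitters' thresholds. Precision is limited by having 2 arrays a group. The fit was tested on simulated data.

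Members and lists were chosen with earlier results of these data known. Up to 2 unnamed features per direction are given, by the smallest of their 3 changes, and members with a full match to a RefSeq window. The alternatives were other signals, centring, filters, thresholds, blocks for slide, session and replicate, and each array left out. Replicate numbers showed no pairing common to all groups (8 of 36 pairs of groups correlated above 0.1). Whether they mark a clone within a line was not tested.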

Additional observations from a re-analysis of the deposited data

Results flagged for a closer look

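In 5 of the features shown by array, both arrays of ZHBTc4 and of Oct4 moved one way from 24 h with LIF to 120 h without it, and both arrays of Oct4 VP2 moved the other way, without overlap. The Oct4 VP2 change in the value table was 2.51 for Z00022680-1, 2.34 for Z00034794-1, 2.01 for Z00023694-1, -2.31 for Z00075208-1 and -3.60 for Z00061870-1. The difference between the lines was not tested, since these features were chosen for it. For Z00061870-1 the Oct4 VP2 change includes replicate 2 at 120 h, where the reference channel was bright, and with normexp and loess the changes were -1.62 in Oct4 VP2 and 0.19 in Oct4.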

How the results depend on the processing

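The number of members depends on the background correction and the threshold. With normexp and loess values 17 falling and 21 rising features met the rule, against 135 and 88. On Cy3 alone, after the same normexp and loess and chosen after seeing the data, 32 and 23 met it. Of the members, 37 and 37 were above background on all 18 arrays. An Oct4 VP2 threshold of 1 gave 84 and 45, and one of 0.5 gave 204 and 136. Leaving out single arrays gave 118 to 206 falling and 73 to 141 rising features, the highest counts without replicate 1 of Oct4 VP2 with LIF (falling, with 117 members kept) and without replicate 1 of Oct4 VP2 at 120 h (rising, with 82 kept). Oct4 VP2 with LIF rests on 2 arrays that differ, and faint features limit the size of every change given above.

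For Oct4 VP2 against Oct4 at 48 h, 1938 features of the array were called, 22 of them falling and 9 rising members. With Feature Extraction signals these were 3232, 29 and 20, and deposited values gave 20 rising members. Among features above background on all 18 arrays 11 falling members were called. With adjusted p alone there were 7119, 48 and 19. Leaving out single arrays gave 1715 to 1929, 22 to 23 and 5 to 10.

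For Oct4 VP2 against ZHBTc4, 1868, 18 and 9 were called. Feature Extraction signals gave 3434, 30 and 20, and deposited values 29 falling and 17 rising members. Features above background on all arrays gave 9 falling members, the first scan session alone 5 rising members, and adjusted p alone 7555, 44 and 20. Leaving out single arrays gave 1626 to 1999, 12 to 21 and 5 to 7.

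For Oct4 against ZHBTc4, 238, 4 and 3 were called. Feature Extraction signals gave 433 features and 8 falling members, deposited values 8 falling members and median centring 502 features (455 higher, 47 lower, against 116 and 122). Features above background on all arrays gave 2 falling members, slide as a random block 155 features, the first session alone (1 ZHBTc4 array) 91 features, 0 falling and 0 rising members by limma (16 and 8 at an unadjusted p under 0.05), and adjusted p alone 1086 features and 5 rising members. Leaving out single arrays, with the lone array assumed to vary like the other groups, gave 78 to 217, 1 to 4 and 1 to 4. The cause of these shifts was not tested.

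Z00023694-1 at 48 h, Oct4 VP2 against Oct4, turned from 0.0035 to -0.14 with Feature Extraction signals and the value table, to -0.12 with median centring and to between -0.16 and 0.17 when single arrays were left out, and it was not called in any of these.

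The replicate numbers showed no pairing common to all groups: replicate differences correlated between -0.25 and 0.70 over the 36 pairs of groups. Pairing within a line was not tested apart. The replicate block gave 1943, 22 and 9 calls against Oct4, 1880, 18 and 9 against ZHBTc4, and 258, 4 and 3 between Oct4 and ZHBTc4.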
